A study of Zanthoxylum armatum with 24 samples.

Results

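The step from initiation (M2) to differentiation (M3) of the male floral primordia was examined in buds of *Zanthoxylum armatum*, a prickly ash that usually bears male and female flowers on separate trees. The comparison takes the M3 libraries (3) against the M2 libraries (2), which are 5 of the 24 samples of the series, and covers every gene of the deposited tables. In the study, buds were taken from 5-year-old trees of known sex, and each library is a mixture of buds from several trees, so the spread given here is that between mixtures. M2 buds were collected in October, before any organ of either sex could be seen in the young flower buds, and M3 buds from November to early December, while the primordia of the floral organs formed. M1 (undifferentiated male buds), M4 (maturing male flowers) and the 4 female stages F1 to F4 entered the same fit and serve here for reference. No group carries a treatment or a transgene, and stage cannot be told apart from season, since each stage was collected on its own dates. M2 replicate 3 was left out, because its table lists no more than 183 genes and repeats the value of M3 replicate 1 in 182 of these.

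Floral organs in plants are specified by combinations of transcription factors, most of them of the MADS-box family. In *Arabidopsis*, A-class genes act in sepals and petals, B-class genes in petals and stamens, C-class genes in stamens and carpels, D-class genes in ovules, and E-class genes together with all of them. Flowers of one sex can arise where stamens or carpels stop growing early. Cytokinin, auxin, abscisic acid, jasmonic acid and sugars are known to act on floral meristems and on the growth of their organs. The names used below are those of the most similar *Arabidopsis* gene that the study assigned to each gene ID, with the prefix Za, and the roles stated are those known in *Arabidopsis*. No name is given for the other IDs.

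Values are FPKM, read numbers scaled for the length of the gene and the mapped reads of the library. Changes are given as log2 fold changes of FPKM + 1, M3 minus M2, with the standard error (SE) of the fit and a limma p-value adjusted by the Benjamini-Hochberg method over all genes tested. On this scale the change of a weakly expressed gene is understated. A gene was called when its log2 fold change reached 1 in either direction at an adjusted p of no more than 0.05, and "rose" and "fell" are used only of called genes. The summed FPKM of the 5 libraries lay between 947639 and 991746, and from 33854 to 34078 genes reached 1 FPKM. Depth relative to M2 replicate 1 was read from the most frequent ratio of its FPKM to that of each library among weak genes. This depth was 0.889 to 0.931 in M3 and 0.988 to 1 in M2. The quality records of the study list lower RNA integrity and a smaller share of mapped reads for M3 than for M2. They list the same for F3 than for F2, with a larger drop in both measures, so RNA quality is not balanced between the sexes at this step. The part of these in the results below, the comparisons of the sexes included, was not tested. Squared correlations of log2 values were 0.962 to 0.970 between libraries of the same stage and 0.934 to 0.936 between stages.

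Of 38734 genes tested, 977 (2.52%) were called, 484 (1.25%) higher and 493 (1.27%) lower in M3. The changes were moderate. The median was 1.21 among the genes that rose and -1.26 among those that fell, while the median of all tested genes was -0.00070. The log2 change reached 2 in 28 genes that rose and was -2 or lower in 42 that fell. None of the genes that rose and 9 of those that fell went past 3 in size. Tested against the fold threshold itself (limma treat), 129 genes were called, 67 higher and 62 lower. Calls occurred at every level of expression except the weakest: none of 3357 genes whose larger group mean was under 1 FPKM, which can hardly reach the threshold on this scale, 2.82% of those from 1 to 5 FPKM, 3.02% from 5 to 20, 2.18% from 20 to 100, and 3.71% of the 1618 genes above 100 FPKM. In this last class 41 genes rose and 19 fell. In 969 of the 977 called genes the M3 and M2 libraries did not overlap. They did not overlap in 45.8% of all tested genes.

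**Figure D1:**
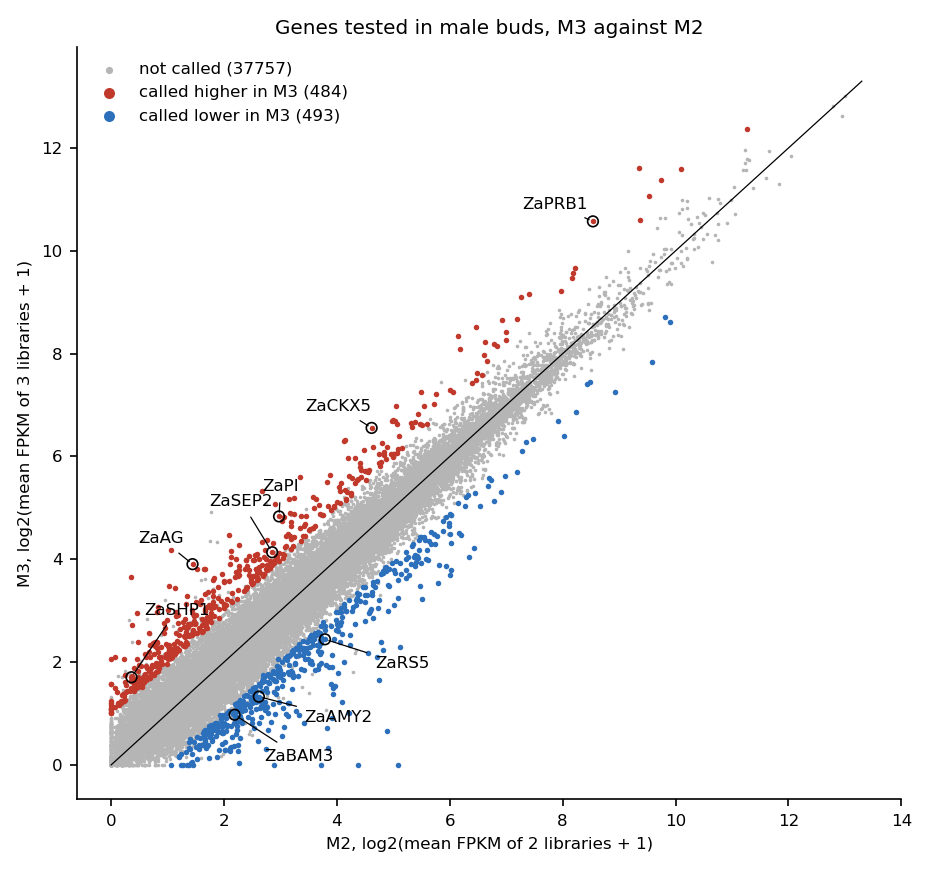
Mean FPKM of each tested gene in M2 (x axis) and M3 (y axis), both as log2(FPKM + 1), with the 484 genes that rose in red, the 493 that fell in blue and the line of equal values. Circles mark 9 named genes; ZaPRB1 and ZaCKX5 lie far above the line at high and middle levels, and ZaBAM3, ZaAMY2 and ZaRS5 lie below it.

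Names were at hand for 130 of the IDs, which fall into 13 lists of hormone, sugar and MADS-box genes. Of these 124 were tested, and 12 rose and 4 fell, which is 12.9% called against the 2.52% of all genes. The study picked these genes from the same samples, partly because they differed between stages or sexes, so their share is no independent evidence. The same holds for the shares of single lists given below. The rises were spread over the floral organ genes (6), cytokinin (2), auxin (1), the jasmonic and salicylic acid list (1) and the trehalose genes (2). The falls were in ZaBAM3, ZaAMY2, ZaRS5 and a weakly expressed ZaAP1. A log2 change with an adjusted p of no more than 0.05, whatever its size, was found for 47 of the 124 and for 17.6% of all tested genes.

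**Figure D2:**
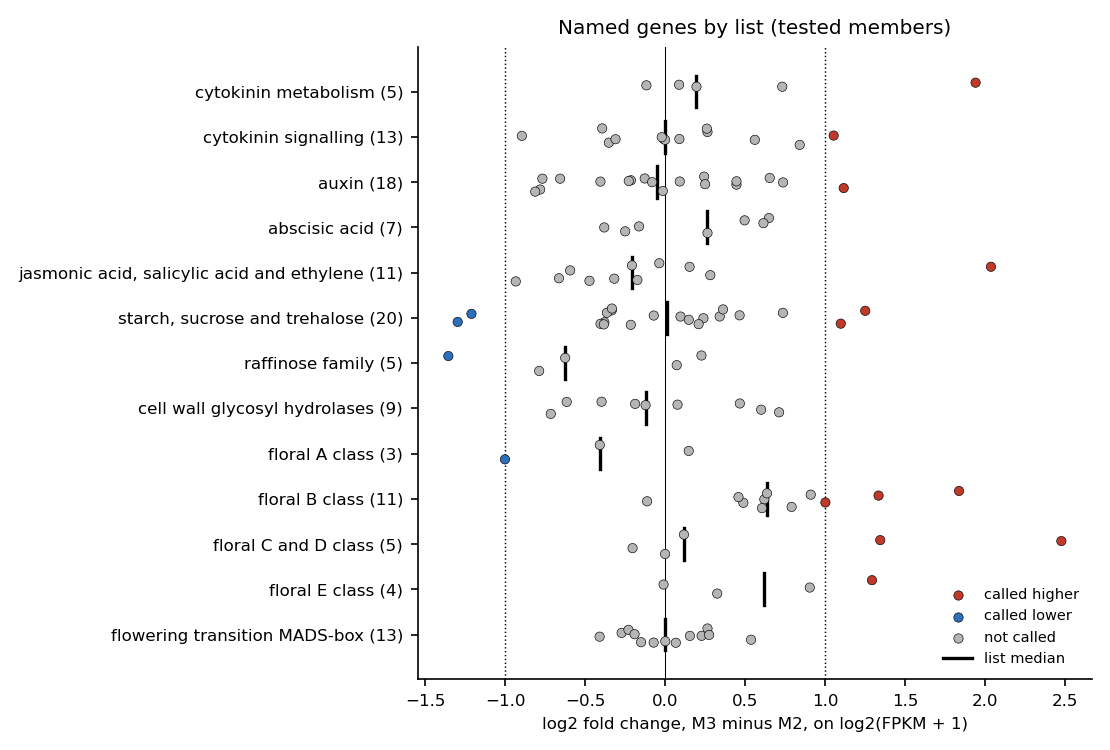
Log2 fold change from M2 to M3 (x axis) of each tested named gene, by list (y axis, with the number tested); bars are list medians and dotted lines mark the fold threshold of 1 in each direction. The B-class and E-class medians lie at 0.64 and 0.62, and the raffinose median at -0.62.

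Of the 11 IDs named after B-class genes, 3 rose and none fell (27.3% called, against 2.52% of all genes), and the list median was 0.64. In *Arabidopsis* these genes are required for petals and stamens. In 10 of the 11 every M3 library was above both M2 libraries, against 22.8% of all tested genes. This is no independent evidence, since the study picked these IDs from the same samples. In 5 of them both M2 libraries were at 0, where any trace in the M3 libraries separates the groups. Some of these stayed under 1 FPKM in M2 and M3 and were tested only through higher values in M4 or F4. ZaPI (Zardc17043), the main *PISTILLATA* gene by level, stood at 6.49 and 7.24 FPKM in M2 and at 20.9, 33.2 and 28.4 FPKM in M3. All M3 libraries lay far above M2, where the gene was already present. The means were 6.86 ± 0.531 (SD, n = 2) and 27.5 ± 6.18 (SD, n = 3), a 4.01-fold rise with a log2 change of 1.84 (SE 0.18, adjusted p = 5.24e-07). An additional *PISTILLATA* ID, which the authors added from their reads, was listed at 0 in both M2 libraries and at 0.734, 1.02 and 1.29 FPKM in M3. Its log2 change of 1.002 (adjusted p = 4.35e-05) sat on the threshold, and the call was lost without M3 replicate 2 (0.9955) or 3 (0.90), with quantile normalization (0.95) and with a replicate block (0.96). The mean of Zardc17043 was 4.44 FPKM in M1 and 122 FPKM in M4, so that M3 lay on the way to the level of the maturing male flower. In female buds its mean was 0.0595 FPKM in F2 and 2.27 FPKM in F3.

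*APETALA3*, the partner of *PISTILLATA*, was represented by 8 IDs, all weak at this step. ZaAP3 (Zardc42253) was the one called: it was at 0.106 and 0 FPKM in M2 and at 1.31, 0.910 and 3.23 FPKM in M3, with a log2 change of 1.33 (SE 0.24, adjusted p = 0.000544). M3 replicate 3 stood well above the other M3 libraries. Without it the log2 change was 0.998 and the call was lost, and in a fit of M2 and M3 alone the adjusted p was 0.0646. An adjusted p of no more than 0.05 without the fold was found for Zardc41638 (0 in M2, 0.474 to 0.573 FPKM in M3, log2 change 0.62, adjusted p = 0.0387), Zardc41639 (0 in M2, 0.238 to 0.796 FPKM in M3, 0.64, 0.0236) and Zardc42251 (0.117 and 0.118 FPKM in M2, 0.526 to 1.51 FPKM in M3, 0.79, 0.0363). All of these values but that of Zardc42251 in M3 replicate 2 were under 1 FPKM. Zardc41655 was at 0 in both M2 libraries and at 0.953, 0.341 and 0.346 FPKM in M3 (log2 change 0.61, adjusted p = 0.0705). Zardc41656 reached 2.59 FPKM in M3 replicate 1 but 0.659 and 0.667 FPKM in the others (0.91, adjusted p = 0.0854), and was called with a pseudocount of 0.5 (1.34, 0.0482) or 0.1 (2.53, 0.016). Zardc42245 was the exception in direction, at 0.318 and 0.429 FPKM in M2 and 0.227 to 0.346 FPKM in M3. Several of these IDs are neighbours in number, and the sources used here do not say whether reads shared by near-identical copies were dropped or split, so the single values are uncertain. In M4 the mean of Zardc42253 was 7.71 FPKM.

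The study also designed primers for quantitative PCR. They are given here, forward then reverse, 5′ to 3′, for some of the floral and cytokinin genes on which the results turn, under the ID that the study lists. Whether a pair amplifies a single copy was not tested, since no gene sequences were used here.
ZaPI Zardc17043 forward: aagaagtcaagcaagaagttgtggg
ZaPI Zardc17043 reverse: ctgtttgttgctaatgccagtgag
ZaAP3 Zardc41655 forward: acataagcccttcaacaacgactaa
ZaAP3 Zardc41655 reverse: tggttacatcctccaaatcttcc
ZaSEP2 Zardc28804 forward: atcttcttggagaggatttggga
ZaSEP2 Zardc28804 reverse: agaataaactgcgtcttggtgga
ZaCKX3 Zardc46645 forward: tcagcctctagcgattacgg
ZaCKX3 Zardc46645 reverse: tttcaactactactcctccttcagc
ZaARR24 Zardc14478 forward: atgaatcatcagaaaataacagcacttg
ZaARR24 Zardc14478 reverse: tcaaccgctatggttgatcttatgt

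On the scale of log2(FPKM + 1) the C-class gene rose most of all named genes. With a pseudocount of 0.1 its change was 2.99, under that of ZaAP3 (Zardc42253), 3.55, and of the *PISTILLATA* ID that the authors added, 3.45. ZaAG (Zardc02402), which stands for *AGAMOUS*, the gene that specifies stamens and carpels and ends the floral meristem, was at 1.29 and 2.14 FPKM in M2 and at 14.7, 15.01 and 12.3 FPKM in M3. The libraries of the stages were far apart. The mean went from 1.72 ± 0.599 (SD, n = 2) to 13.98 ± 1.49 FPKM (SD, n = 3), 8.15-fold, with a log2 change of 2.48 (SE 0.24, adjusted p = 3.65e-07). ZaSHP1 (Zardc10218), a relative of *AGAMOUS* that acts in carpel and fruit, was at 0.161 and 0.406 FPKM in M2 and at 2.62, 2.33 and 1.83 FPKM in M3 (log2 change 1.34, SE 0.17, adjusted p = 7.57e-06). It thus rose in male buds, from a level near 0 and to a level far under that of ZaAG. The other ZaSHP1 ID (Zardc17954) did not pass the test and stayed under 0.35 FPKM in all 5 libraries. The ovule gene *SEEDSTICK* was nearly absent: ZaSTK (Zardc33529) was listed at 0 in all 5 libraries, and ZaSTK (Zardc44971) was at 0.278 FPKM in M3 replicate 3 and at 0 in the others. The labels call the buds male. Both ZaAG and ZaSHP1 (Zardc10218), which also act in carpels, had values above 0 in all M2 and M3 libraries. In F3 they were lower than in M3, at 3.50 to 4.18 FPKM for ZaAG and 1.43 to 1.75 FPKM for ZaSHP1. The ovule gene had a value above 0 in a single M3 library.

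Of the E-class genes, 1 of 4 rose (25% called, against 2.52% of all genes). ZaSEP2 (Zardc28804), one of the *SEPALLATA* genes that act in all floral organs, was at 7.06 and 5.39 FPKM in M2 and at 15.996, 17.2 and 16.5 FPKM in M3. The M3 libraries were close to each other and all above M2, with a log2 change of 1.29 (SE 0.13, adjusted p = 7.45e-07). ZaSEP1 (Zardc32032) was at 12.04 and 7.90 FPKM in M2 and at 17.1, 21.9 and 18.7 FPKM in M3. Its change of 0.90 (adjusted p = 0.00305) fell short of the fold threshold, and it was called without M2 replicate 1, at 1.18. The other ZaSEP2 ID (Zardc10299) was level, at 17.9 and 20.5 FPKM in M2 and 17.4 to 20.4 FPKM in M3 (log2 change -0.01). ZaSEP3 (Zardc28170) was at 0 in both M2 libraries and in M3 replicate 2, and reached 0.768 FPKM at most.

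In the A class the direction was downward for both ZaAP1 IDs. *APETALA1* marks the young floral meristem and acts in sepals and petals. ZaAP1 (Zardc39101), the stronger one, was at 31.0 and 32.4 FPKM in M2 and at 20.1, 25.2 and 26.0 FPKM in M3 (log2 change -0.41, adjusted p = 0.037), short of the fold threshold. Every M3 library of both IDs lay below both M2 libraries, as in 23% of all tested genes. ZaAP1 (Zardc39213) was at 2.04 and 2.58 FPKM in M2 and at 0.574, 1.23 and 0.278 FPKM in M3. It fell with a log2 change of -1.001 (SE 0.31, adjusted p = 0.0308). The call was not stable: it was lost without M2 replicate 1 (-1.12, adjusted p = 0.0892) or 2 (-0.88, 0.193), without M3 replicate 1 (-0.97, 0.0734) or 3 (-0.82, 0.114), with a replicate block (-0.97, 0.053), with a pseudocount of 0.1 (-1.78, 0.0632) and in a fit of M2 and M3 alone (adjusted p = 0.068). ZaAP2 (Zardc30916) was at 34.0 and 37.7 FPKM in M2 and at 38.3 to 41.2 FPKM in M3 (0.15, adjusted p = 0.13). In whole buds, more cells of one organ and more RNA per cell cannot be told apart, which applies to every gene described here. Leaf, bract and vascular tissue have no named marker in these tables, so the makeup of the buds was not tested.

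**Figure D3:**
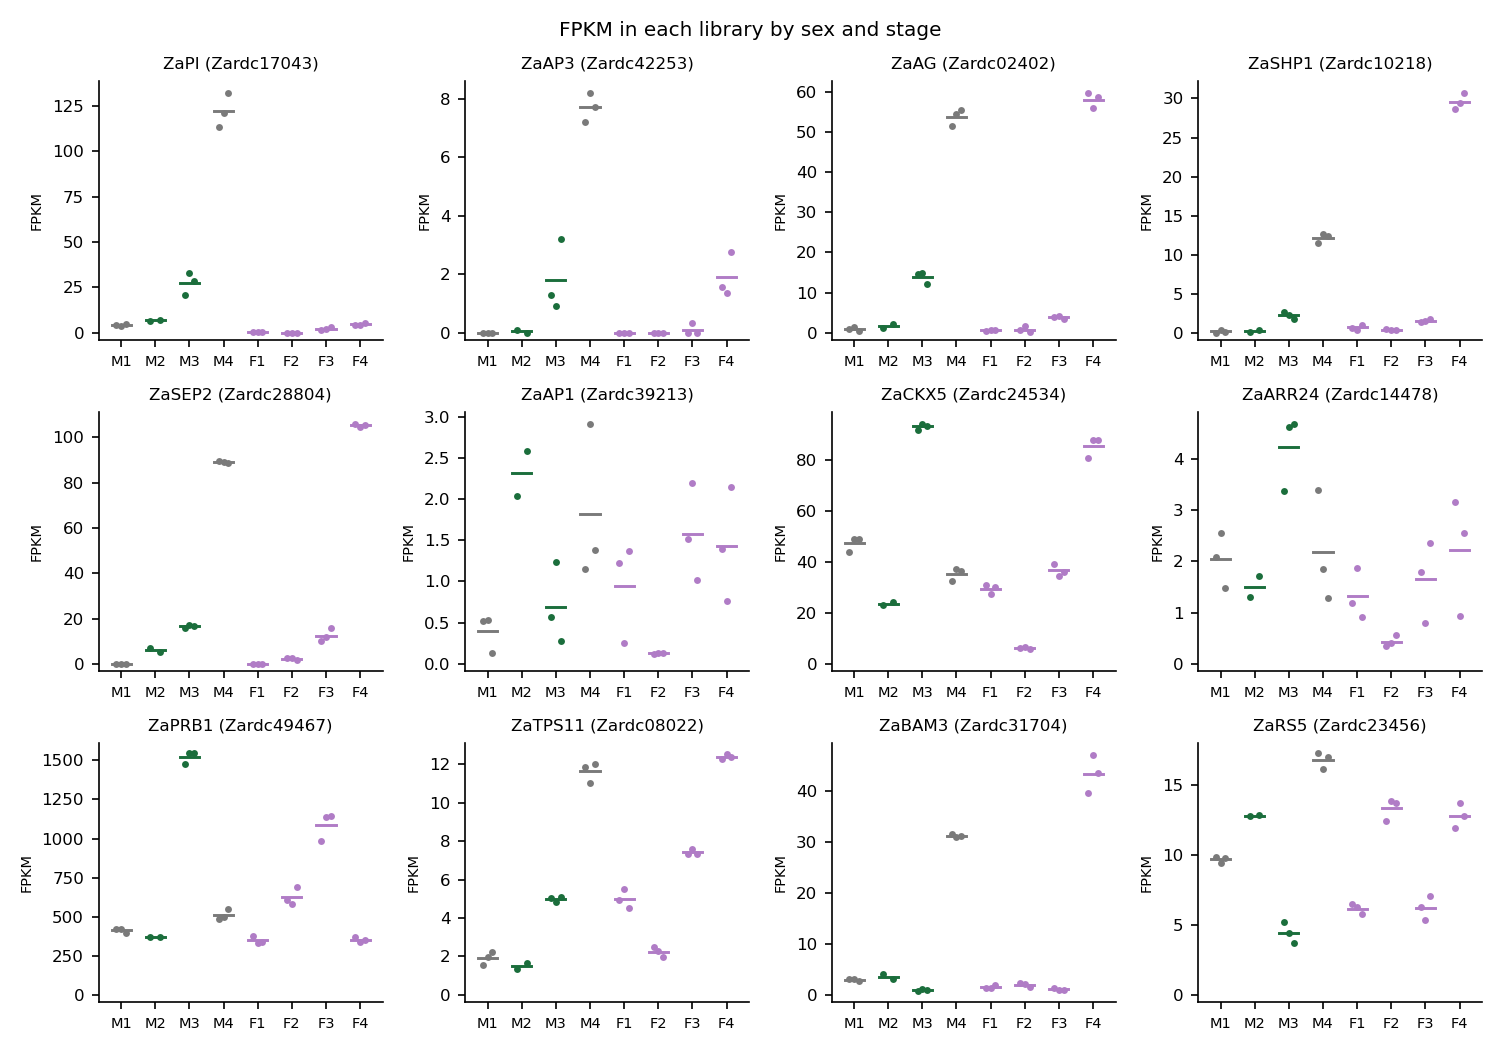
FPKM (y axis) of 12 named genes in each library (points) with group means (bars), for male stages M1 to M4 and female stages F1 to F4; M2 and M3 are in green. ZaPI, ZaAP3, ZaAG, ZaSHP1 and ZaSEP2 are higher still in M4 than in M3, while ZaCKX5, ZaARR24 and ZaPRB1 are highest in M3 among the male stages.

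Of 5 tested genes of cytokinin metabolism 1 rose, ZaCKX5 (20% called, against 2.52% of all genes), and the list median was 0.20. Cytokinin oxidases (CKX) break cytokinins down and are commonly induced by the hormone. ZaCKX5 (Zardc24534) was at 22.9 and 24.1 FPKM in M2 and at 91.8, 94.0 and 93.3 FPKM in M3. The mixtures agreed closely, with means of 23.5 ± 0.876 (SD, n = 2) and 93.0 ± 1.15 FPKM (SD, n = 3), a 3.96-fold rise with a log2 change of 1.94 (SE 0.07, adjusted p = 1.17e-12). Its means in M1 and M4 were 47.2 and 35.2 FPKM, so M3 was the highest male stage and M2 the lowest. ZaCKX3 (Zardc46645) was at 56.2 and 58.8 FPKM in M2 and at 92.4, 97.6 and 98.5 FPKM in M3, a 1.67-fold difference (log2 0.73, adjusted p = 3.62e-06) under the fold threshold. ZaCKX6, ZaUGT85A1 and ZaUGT85A4 had log2 changes between -0.12 and 0.20 with overlapping libraries, and ZaCKX1 was too weak to be tested.

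Among 13 cytokinin signalling genes, 1 rose (7.69% called, against 2.52% of all genes). ZaARR24 (Zardc14478), a response regulator, was at 1.31 and 1.71 FPKM in M2 and at 3.37, 4.63 and 4.69 FPKM in M3. The libraries did not overlap and the log2 change was 1.05 (SE 0.31, adjusted p = 0.0231), but the call was lost without M2 replicate 1 (0.94, adjusted p = 0.165) or 2 (1.17, 0.0753) and without M3 replicate 2 (0.9954, 0.0642) or 3 (0.99, 0.0647). The type-A response regulators, which are induced by cytokinin and dampen its signal, gave differing values. ZaARR9 (Zardc11274) was at 15.8 and 15.2 FPKM in M2 and at 26.8, 29.0 and 30.2 FPKM in M3 (0.84, adjusted p = 1.15e-05), and ZaARR3 (Zardc46700) at 46.2 and 45.9 FPKM against 63.5, 67.3 and 75.1 FPKM (0.56, adjusted p = 0.000985). The other ZaARR9 ID (Zardc33161) overlapped, at 57.5 and 66.2 FPKM in M2 and 58.5 to 65.8 FPKM in M3. Of the type-B regulators, which are transcription factors, ZaARR11 (Zardc48440) was at 7.68 and 7.60 FPKM in M2 and at 4.41, 3.67 and 2.97 FPKM in M3 (-0.89, adjusted p = 0.000797). Without M3 replicate 1 its change was -1.005 and it was called. The cytokinin receptor ZaAHK4 (Zardc55048) was at 81.2 and 75.9 FPKM in M2 and at 96.5, 94.6 and 91.8 FPKM in M3 (0.26, adjusted p = 0.000208), and the phosphotransfer gene ZaAHP4 was listed at 0 in all 5 libraries. The median of the signalling list was 0.

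The auxin list had 1 call among 18 genes (5.56%, against 2.52% of all genes) and a median of -0.05. ZaGH3.1, of a family of enzymes that conjugate auxin to amino acids, is Zardc26158 in the annotation tables of the study, whose results text gives another ID. Zardc26158 was at 1.51 and 1.93 FPKM in M2 and at 4.02, 4.77 and 6.001 FPKM in M3. It rose with a log2 change of 1.12 (SE 0.16, adjusted p = 3.06e-05), which was 0.99 and not called without M3 replicate 3. Auxin influx carriers were higher without reaching the threshold: ZaLAX2 (Zardc55290) went from 6.83 and 8.10 FPKM to 15.9, 13.7 and 10.2 FPKM (0.74, adjusted p = 0.00367). The auxin response factor ZaARF3 (Zardc26868) was at 29.2 and 26.8 FPKM in M2 and at 16.8, 17.4 and 18.1 FPKM in M3 (-0.66, adjusted p = 8.73e-07). Among the Aux/IAA repressors ZaIAA3 (Zardc04224) was at 12.2 and 10.6 FPKM against 17.0, 21.4 and 17.2 FPKM (0.65, adjusted p = 0.000295), whereas ZaIAA11 and ZaIAA12 overlapped between the stages.

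None of 7 abscisic acid genes was called by limma, against the 2.52% of all genes, and their median was 0.27. None reached the fold threshold, and 5 had an unadjusted p of no more than 0.05. The PP2C phosphatases, which hold abscisic acid signalling off, were higher in M3 by less than the threshold. ZaAHG3 (Zardc09485) was at 44.5 and 48.4 FPKM in M2 and at 71.1, 76.4 and 72.8 FPKM in M3 (0.65, adjusted p = 2.54e-07). ZaAIP1 (Zardc53596) was at 31.1 and 30.2 FPKM against 45.2, 44.5 and 53.1 FPKM (0.61, adjusted p = 1.36e-05). The receptor genes ZaPYL4 and ZaPYL5 stayed under 1 FPKM in all 5 libraries.

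One gene of the jasmonic acid, salicylic acid and ethylene list rose, and by a large amount. ZaPRB1 (Zardc49467), a basic pathogenesis-related protein of the PR1 family, was at 372 and 368 FPKM in M2 and at 1475, 1545 and 1547 FPKM in M3. The mean rose 4.11-fold, from 370 ± 3.21 (SD, n = 2) to 1522 ± 41.2 FPKM (SD, n = 3), with a log2 change of 2.04 (SE 0.08, adjusted p = 1.35e-12). Among all 977 called genes its gain of 1152 FPKM ranked 6. M1 (413 FPKM) and M4 (513 FPKM) were near the level of M2. A ZaPRB1 gene under an ID that the authors added went the other way, at 7.404 and 9.95 FPKM in M2 and 2.73, 5.10 and 4.57 FPKM in M3 (-0.93, adjusted p = 0.0173). It was called without M2 replicate 1 (-1.12) or without M3 replicate 2 (-1.07) or 3 (-1.01). ZaJAZ1 (Zardc06900), a repressor of jasmonate responses, was at 91.4 and 95.7 FPKM in M2 and at 58.4, 62.3 and 64.4 FPKM in M3 (-0.59, adjusted p = 3.36e-07). The list had 1 call among 11 genes (9.09%, against 2.52% of all genes) and a median of -0.21.

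The starch, sucrose and trehalose list held 4 calls among 20 tested genes (20%, against 2.52% of all genes), 2 in each direction. Its median was 0.01. The genes that fell encode starch-degrading enzymes. ZaBAM3 (Zardc31704), a beta-amylase, was at 4.03 and 3.08 FPKM in M2 and at 0.723, 1.15 and 1.03 FPKM in M3 (-1.21, SE 0.15, adjusted p = 6.26e-06). ZaAMY2 (Zardc08999), an alpha-amylase, was at 5.26 and 5.01 FPKM against 1.196, 1.77 and 1.56 FPKM (-1.30, SE 0.19, adjusted p = 6.69e-05). ZaBAM1 and the ZaBAM2 gene did not pass, with changes of 0.24 and -0.21. In M4 the mean of ZaBAM3 was 31.1 FPKM, far above both stages. The genes that rose were both named ZaTPS11, of the trehalose-6-phosphate synthase family. ZaTPS11 (Zardc08022) was at 1.36 and 1.68 FPKM in M2 and at 5.04, 4.82 and 5.09 FPKM in M3 (1.25, SE 0.11, adjusted p = 1.35e-07). The ZaTPS11 under an added ID was at 0.852 and 1.34 FPKM against 3.11, 3.82 and 3.45 FPKM (1.10, SE 0.14, adjusted p = 7.15e-06), and was 0.93 and not called without M2 replicate 1. The results text of the study also gives the name ZaTPS11 to Zardc33027, which is listed here under another name. Zardc33027 was at 32.5 and 32.0 FPKM in M2 and 34.4 to 36.7 FPKM in M3 (0.15, adjusted p = 0.144), and was not called. ZaTPS6 and ZaTPS9 did not pass, at 0.34 and 0.36. ZaSUS2 (Zardc36683), a sucrose synthase, was at 2.001 and 2.08 FPKM in M2 and 1.66 to 2.12 FPKM in M3.

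The raffinose family genes had the lowest list median, -0.62, with 1 of 5 called (20%, against 2.52% of all genes). ZaRS5 (Zardc23456), a raffinose synthase, was at 12.8 and 12.9 FPKM in M2 and at 5.22, 4.40 and 3.70 FPKM in M3. The M2 libraries were nearly equal, the M3 libraries were all lower, and the log2 change was -1.35 (SE 0.11, adjusted p = 3.98e-08). ZaSTS (Zardc04821), a stachyose synthase, was at 5.77 and 5.62 FPKM in M2 and at 2.65, 2.65 and 3.39 FPKM in M3 (-0.79, adjusted p = 0.000399). ZaSIP1 (Zardc07320) was at 129 and 127 FPKM against 84.5, 78.9 and 84.4 FPKM (-0.62, adjusted p = 1.11e-08). ZaSIP2 and ZaDIN10 had changes of 0.23 and 0.07 and did not pass.

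No gene was called by limma among 9 tested cell wall glycosyl hydrolases and 13 tested MADS-box genes of the flowering transition, against 2.52% of all genes. None reached the fold threshold, and 5 and 4 of them had an unadjusted p of no more than 0.05. In the first list the log2 changes ran from -0.71 to 0.71. ZaBGLU44 (Zardc54087), a beta-glucosidase, was at 49.7 and 41.5 FPKM in M2 and at 63.4, 65.9 and 60.3 FPKM in M3 (0.47, adjusted p = 0.000922), and the gene named after AT3G13560 (Zardc32360) was at 21.2 FPKM in both M2 libraries and 13.1 to 14.2 FPKM in M3 (-0.61, adjusted p = 6.18e-05). In the second list the changes ran from -0.41 to 0.54, and none had an adjusted p of 0.05 or less. ZaSVP (Zardc30745), a repressor of flowering in *Arabidopsis*, was at 2.48 and 2.61 FPKM in M2 and at 3.68, 4.15 and 4.64 FPKM in M3 (0.54, 95% interval 0.11 to 0.97, adjusted p = 0.0795). ZaSOC1 (Zardc51954), a promoter of flowering, did not exceed 0.26 FPKM in any of the 5 libraries.

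Beyond the named genes, the largest changes among called genes without overlap were in IDs that the study did not name. Zardc43835 fell the most: it was at 33.7 and 31.9 FPKM in M2 and listed at 0 in all 3 M3 libraries (log2 change -5.08), and it was called under every alternative. It was at 3.19 to 4.75 FPKM in M1, and at 1.38 FPKM or less in all M4 and female libraries. A gene under an added ID was similar, at 25.6 and 13.7 FPKM in M2 and at 0 in all 3 M3 libraries (-4.31). It was at 5.32 to 8.55 FPKM in M1 and at 0 in M4. Both genes thus had their highest level in M2. Zardc44253 rose from 4.58 and 6.25 FPKM to 38.9, 39.8 and 38.8 FPKM (2.66, SE 0.10). Zardc12177 had the largest rise, 2.79, but with a wide spread: it was at 1.33 and 0.841 FPKM in M2 and at 3.93, 20.2 and 27.1 FPKM in M3 (SE 0.89, adjusted p = 0.0354). It also varied widely between libraries of M4, F1 and F4, and its call was lost without any library of the 5 but M3 replicate 1, with adjusted p from 0.103 to 0.178.

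On-off changes were few. At 0 in both M2 libraries and at 1 FPKM or more in all M3 libraries were 2 genes, both called, with M3 means of 3.17 FPKM at most. At 0 in all M3 libraries and at 1 FPKM or more in both M2 libraries were 9 genes, of which 6 were tested and called. Of 3772 tested genes with added IDs, 76 (2.01%) were called. Among the 901 called genes of the published genome, 88 (9.77%) had a neighbour in ID order called the same way. These made up 36 pairs and 5 runs of 3 or more, the longest of 4 genes. Of all tested genes 1.25% were called higher and 1.27% lower. Whether called genes lie side by side more often than these shares would give was not tested.

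The female step from F2 to F3, which shares no library with M3*vs.*M2, asks how far the male changes are those of either sex. In F3*vs.*F2 2750 genes (7.10% of all tested) were called, 1619 (4.18%) higher and 1131 (2.92%) lower. Of the 484 genes that rose in males, 257 also rose in females, which is 53.1% of the male and 15.9% of the female list, and 1 fell. Of the 493 that fell in males, 107 fell in females (21.7% of the male and 9.46% of the female list) and 25 rose. The F3 minus F2 change was above 0 in 89.3% of the genes that rose in males, against 50.4% of all tested genes, with a median of 1.08. It was below 0 in 65.5% of those that fell, against 48.8%, with a median of -0.38. Over all tested genes the changes in the sexes had a Pearson r of 0.41 and a Spearman rho of 0.39. Genes are not independent replicates, so no p is attached.

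The difference between the sexes was tested as an interaction, the M3 minus M2 change less the F3 minus F2 change. It was called in 1969 of the 38734 genes (5.08%), positive in 786 (2.03%) and negative in 1183 (3.05%). Among the 977 male calls it was called in 354 (36.2%), 136 that rose and 218 that fell. The M2 and M3 values that chose the male calls also enter the interaction, so shares among these calls are no independent evidence. Of the 587 male calls that were not called in females, 267 (45.5%) had a called interaction. For the rest, a difference between the sexes that meets both the fold and the p threshold was not shown. Some of these had a smaller difference with a low adjusted p in the limma interaction test. Examples are the added *PISTILLATA* ID (0.94, adjusted p = 0.00157) and ZaBAM3 (-0.70, 0.0167). Others, such as ZaARR24 (0.21, 0.772), did not. Among the named genes that moved in males, ZaPRB1 (Zardc49467) rose by more than in females, where it went from 584 to 690 FPKM in F2 to 983 to 1143 FPKM in F3 (interaction 1.24, adjusted p = 5.84e-08). ZaAP3 (Zardc42253) was at 0 in all F2 libraries and at 0, 0.342 and 0 FPKM in F3 (interaction 1.19, adjusted p = 0.0132). ZaAP1 (Zardc39213) moved the opposite way in females, from 0.118 to 0.137 FPKM in F2 to 1.02 to 2.1998 FPKM in F3 (interaction -2.17, adjusted p = 0.000898).

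For none of the other named male calls was the interaction called. ZaCKX5 went from 5.93 to 6.48 FPKM in F2 to 34.6 to 39.3 FPKM in F3, and its interaction of -0.45 (adjusted p = 0.00241) was under the fold threshold. ZaAG went from 0.117 to 1.64 FPKM in F2 to 3.50 to 4.18 FPKM in F3 (interaction 0.99, adjusted p = 0.0365), and ZaSEP2 (Zardc28804) from 1.83 to 2.51 FPKM to 10.02 to 15.6 FPKM (-0.74, adjusted p = 0.00589). ZaPI (Zardc17043) changed by 1.61 in females on the log2 scale, from a far lower level, with an interaction of 0.23 (adjusted p = 0.569, SE 0.25). On a scale that adds 1 FPKM, equal changes at such different levels do not stand for equal ratios.

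**Figure D4:**
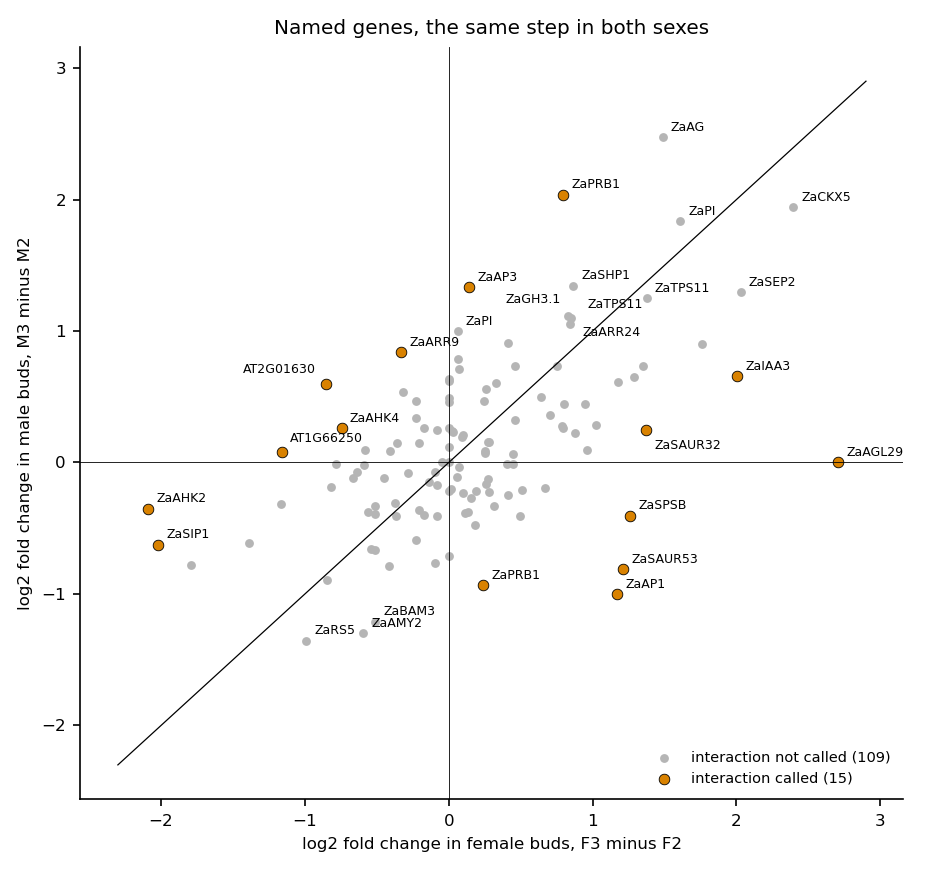
Log2 fold change of each tested named gene in female buds (F3 minus F2, x axis) and male buds (M3 minus M2, y axis), with the 15 genes of called interaction in orange and the line of equal change. ZaAHK2 and ZaSIP1 lie at about -2 in females and between -0.7 and 0 in males, and ZaAGL29 (Zardc26470) lies at 2.71 in females and at 0 in males.

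Across the stages, the 484 genes that rose had their lowest levels in M2 and F2. Their median FPKM was 4.32 in M1, 2.52 in M2, 8.46 in M3 and 7.18 in M4, and 5.56, 2.92, 9.28 and 8.69 in F1 to F4. The M2 and M3 values chose these genes and are no finding. The M1, M4 and female libraries did not enter the difference itself, but they helped to set the filter and the spread of the test. The 493 genes that fell had medians of 4.82 in M1, 8.38 in M2, 2.44 in M3 and 3.099 in M4, and of 4.24, 4.85, 3.33 and 3.59 in F1 to F4. The median of the first set thus stayed high in M4 and F4, and that of the second stayed low.

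**Figure D5:**
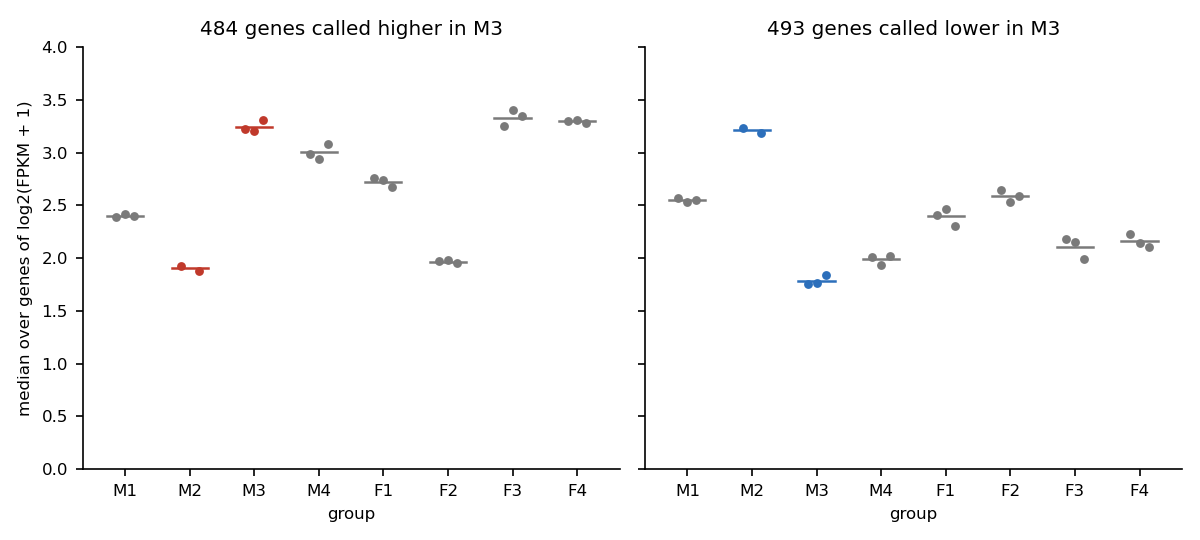
Median over genes of log2(FPKM + 1) in each library (points) with group means (bars), for the 484 genes that rose and the 493 that fell from M2 to M3. The M2 and M3 libraries are coloured; F2 lies close to M2 in the first set but well under it in the second.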

How the data were processed

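Bud RNA was sequenced, and the authors deposited FPKM values for 60592 genes per library, made by aligning to the published *Z. armatum* genome and counting with HTSeq; 5257 of the genes carry IDs that they added. The submitters' processing notes name Bowtie 0.12.2 and mm8, a mouse build that does not match this species. The tables used here hold no read counts per gene, so no counting error is stated.

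Genes that reached 1 FPKM in 3 or more of the 23 libraries were tested on log2(FPKM + 1) with limma 3.58.1 (trended prior, all 8 groups fitted together, 15 residual degrees of freedom, no further scaling) in R 4.3.3. As M2 has 2 libraries, the test leans on the spread within the other groups. Figures used Python 3.11.15 with numpy 2.4.6, pandas 2.3.3 and matplotlib 3.10.9. The calls were tested on simulated data. Changes were put only into genes of middle or high level there. All were larger in size than the medians of the calls, so weak genes and smaller changes were not covered. The named genes are all those annotated by name in the tables of the study, and beyond them the 2 highest and the 2 lowest changes among called genes without overlap between the stages. The members and lists were chosen with earlier results of these data known. Alternatives were pseudocounts of 0.5 and 0.1, no filter, 1 FPKM in 2 libraries, quantile normalization, M2 and M3 alone, a replicate block, limma treat, unadjusted p-values, and each library left out in turn.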

Additional observations from a re-analysis of the deposited data

Results flagged for a closer look

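The M2 to M3 change differed from the F2 to F3 change, by the interaction test (limma, adjusted p of no more than 0.05 and a difference of at least 1), in 15 of the 124 tested named genes (12.1%, against 5.08% of all tested genes) and in 2 of the 4 genes of largest change. Neither share is independent evidence. The study picked the named genes from the same samples, partly because they differed between stages or sexes. The M2 and M3 values that chose the genes of largest change also enter the interaction. Groups of 2 or 3 libraries are too small for a test of single libraries.

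The difference was positive, which means a higher M3 minus M2 than F3 minus F2 change, in 8 of the named genes. It was 1.74 for the cytokinin receptor gene ZaAHK2 (34.2 and 34.6 FPKM in M2 and 24.1 to 29.8 FPKM in M3, against 31.5 to 40.3 FPKM in F2 and 4.95 to 14.2 FPKM in F3). It was 1.01 for ZaAHK4 (Zardc55048), at the threshold, and 1.17 for ZaARR9 (Zardc11274). The other ZaAHK4 ID (Zardc23082) had a difference of 0.78 (limma adjusted p = 9.27e-05), under the threshold. In ZaAHK2 the female step was downward (-2.09) and the male step did not pass the test. It was 1.24 for ZaPRB1 (Zardc49467), 1.396 for ZaSIP1, which was at 171 FPKM in all F2 libraries and at 39.4 to 42.7 FPKM in F3, and 1.19 for ZaAP3 (Zardc42253). For the glycosyl hydrolase genes it was 1.24 for AT1G66250 (Zardc27757) and 1.45 for AT2G01630 (Zardc01536).

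The difference was negative in 7 named genes. It was -1.35 for ZaIAA3, -1.13 for ZaSAUR32 and -2.02 for ZaSAUR53, all auxin genes that rose in females. The M2 libraries of ZaSAUR53 lay far apart, at 3.48 and 0.770 FPKM, and overlapped M3 (0.367 to 1.05 FPKM). Over the alternatives the male change of ZaSAUR53 ran from -1.48 to -0.142, so its value is uncertain. The difference was -1.17 for the ZaPRB1 under an added ID and -1.66 for the sucrose phosphate synthase gene ZaSPSB. For ZaAP1 (Zardc39213) it was -2.17, and for the MADS-box gene ZaAGL29 (Zardc26470) -2.71. This ID was at 0.245 to 0.847 FPKM in F2 and 7.44 to 10.4 FPKM in F3, while its male libraries lay between 5.71 and 7.23 FPKM at both stages. The other ZaAGL29 ID (Zardc32140) was weak, with a difference of -0.33 that was not called (limma adjusted p = 0.532). For the genes of largest change the difference was -5.08 for Zardc43835 and -4.23 for the gene under an added ID, both nearly absent from F2 and F3.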

How the results depend on the processing

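The 977 calls of M3*vs.*M2 kept within 1.5 times their number under most alternatives, with 2 exceptions. With a pseudocount of 0.1 there were 1704 (4665 in F3*vs.*F2, and 670 called the same way in both), and with limma treat 129 (813 in F3*vs.*F2, 194 in the interaction and 59 the same way in both). Leaving out each library gave 956 to 991 calls in M3*vs.*M2, 2715 to 3026 in F3*vs.*F2, 1814 to 2261 in the interaction and 335 to 378 the same way in both. Without M2 replicate 1, 743 of the 977 were called again, and without M2 replicate 2, 729, with the lone library assumed to vary like the other groups. Deviations of same-numbered M2 and M3 libraries correlated at -0.0123 and -0.00178, so no pairing by replicate number was seen. With 2 M2 libraries, whose deviations mirror each other, this cannot show that the libraries were unpaired. A replicate block gave 958 calls.

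Of 20 named or largest called genes, 7 were called under every alternative: ZaCKX5, ZaPRB1, ZaPI (Zardc17043), ZaAG, Zardc44253, Zardc43835 and the gene of largest fall under an added ID. ZaBAM3, ZaAMY2, ZaRS5, ZaSHP1, ZaSEP2 and ZaTPS11 (Zardc08022) were lost under treat alone. The direction of changes near 0 turned without M2 replicate 2 in AT1G66250 and ZaAGL29 (Zardc26470, -0.0714), and without M3 replicate 2 in this ZaAGL29 ID. Over the libraries left out AT1G66250 ranged from -0.0298 to 0.185 and ZaAGL29 from -0.0902 to 0.0737. The causes were not tested. FPKM without counts gives no limit of detection, so weak genes such as the ZaAP3 IDs remain uncertain.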
